A study of Mus musculus with 12 samples.

Results

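Late fallers were defined as genes whose RNA stayed near the untreated level after 1 h of fenoterol and was at 0.5 of that level or less after 4 h. Of 53379 genes listed in the count table, 10566 had a mean of at least 2 CPM (the count of a gene scaled to the library total) over the 12 libraries, and 172 of these were late fallers. The 1 h ratio, mean CPM at 1 h plus 0.1 over mean untreated CPM plus 0.1, had to lie between 0.8 and 1/0.8, the 4 h ratio, formed in the same way, had to be at most 0.5, and the 4 h value had to be below the untreated value in all 4 mice. Since the genes were chosen by these mean CPM values, the ratios at 1 h and 4 h are given below as a description and without a test.

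RNA was sequenced from bone marrow-derived macrophages (BMDMs) of 4 C57Bl/6J mice, grown from femur and tibia marrow in serum-containing medium with L929 cell conditioned medium. From each mouse, cells without fenoterol and cells lysed 1 h or 4 h after fenoterol at 1 μM were taken, which gave 3 groups of 4 libraries, and the medium was not changed before treatment. The 4 untreated libraries served as the control for both times, so the 1 h and 4 h ratios share them, and the time at which untreated cells were lysed was not given in the sources used here. Total counts were 14580533 to 22580692 in untreated libraries, 18288911 to 20549801 at 1 h and 18446470 to 24153284 at 4 h. The 10 macrophage markers examined, *Lyz2* the most abundant of them, summed to between 39709 and 45209 CPM in every library and none was at 0. *Lyz2* made up over 50% of that sum in each group, and within it *Cd14* had group means of 660 CPM untreated, 3288 at 1 h and 3837 at 4 h and *Fcgr1* of 278, 268 and 465. With *Itgam* these had a higher mean at 4 h than untreated, and the other 7 had a lower one, such as *Mrc1* (3156 CPM untreated and 2436 at 4 h) and *Csf1r* (6191 and 5245). Of the B cell markers *Ms4a1* and *Cd79a* had group means of at most 0.0767 CPM and *Cd79b* of 7.35 to 9.56. As these are bulk samples, fewer cells of a kind and less RNA per cell cannot be told apart.

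Fenoterol is a β-adrenergic agonist, and its receptor couples to the stimulatory G protein, raises cAMP and activates protein kinase A. The kinase phosphorylates CREB, which binds the cAMP response element (CRE) and switches on a first wave of genes. In macrophages this pathway is known mainly for restraining inflammatory responses. Only RNA levels were measured here, as totals that do not separate synthesis from decay.

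The rule placed the decline between 1 h and 4 h. The 172 late fallers had a median 1 h ratio of 0.929 (lower and upper quartiles 0.877 and 1.01) and a median 4 h ratio of 0.389 (quartiles 0.300 and 0.447), whereas the 10566 genes with at least 2 CPM had medians of 0.952 and 1.02. Together they took 3.03% ± 0.07 (SD, n = 4) of all counts before treatment, 2.90% ± 0.11 after 1 h and 1.21% ± 0.07 after 4 h. In single mice the median ratio of the late fallers was 0.935, 0.937, 0.948 and 0.920 at 1 h, and 0.375, 0.350, 0.397 and 0.392 at 4 h. Each of the 172 dropped from 1 h to 4 h in every mouse, which the limits of the rule largely set. In 170 of them the highest 4 h value was below the lowest untreated value, as it was in 19.2% of the 10566 genes. At 1 h all 4 treated values were below all untreated values for 22 of the 172, beside 19.3% of the 10566 genes. These are CPM by column total, in which the median 1 h ratio of the 10566 genes was also under 1 (0.952). In the edgeR fit with TMM scaling, 5 late fallers were called lower and 5 higher at 1 h.

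**Figure D1:**
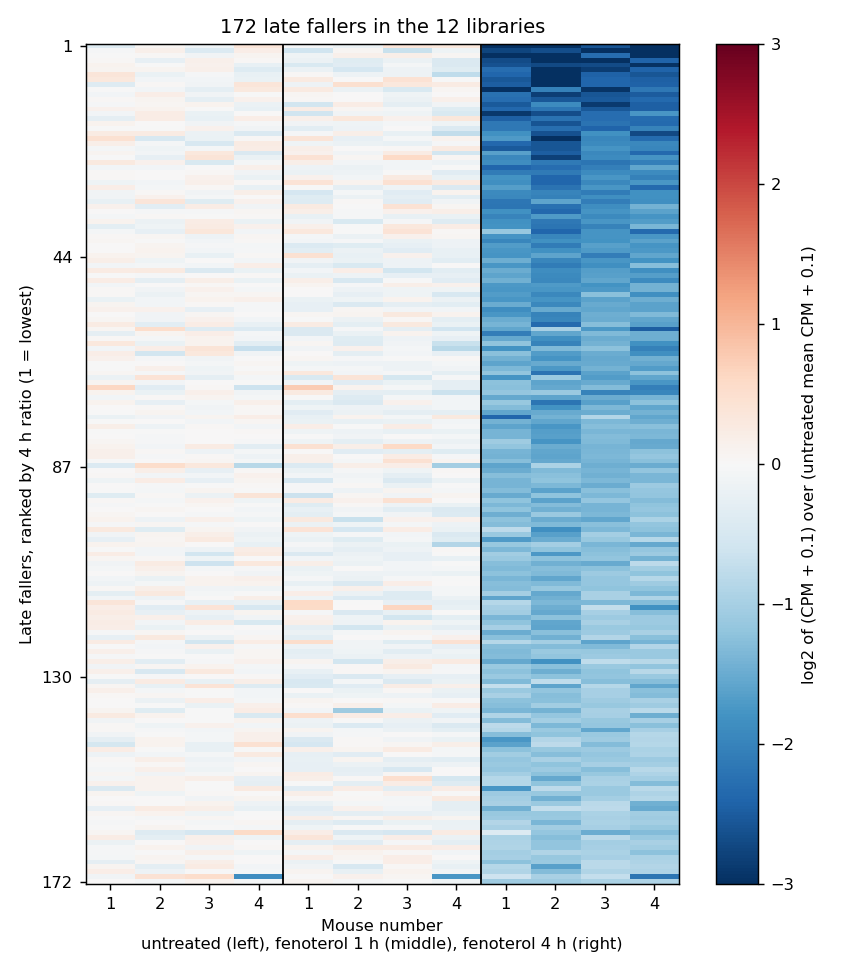
Each row is 1 of the 172 late fallers, ranked by 4 h ratio, and each column 1 of the 12 libraries, with color giving the log2 of CPM plus 0.1 over the gene's untreated mean plus 0.1. Rows are pale in the untreated and 1 h columns and blue in the 4 columns at 4 h, and the row near the bottom with a dark cell in mouse 4 of every group is *Gm44751*, which had 2.58 CPM in untreated BMDMs of mouse 4 against 8.99 to 14 in the others.

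Genes at the limits show how the rule drew its borders. *Myof*, *Gm44751* and *Lipa* were just inside the 4 h limit with ratios of 0.499, 0.50 and 0.50, and *Plxnb3*, *Myo5a* and *Coro2a*, which met every other condition, were just outside it with 0.501, 0.502 and 0.504. At the lower border of the 1 h window *Blnk* (0.8004) and *Oit3* (0.8018) were taken while *Rp2* (0.7989) and *Plxnd1* (0.7996) were not. At the upper border *Cdk6* and *Arap2* (both 1.24) were taken, and *Gadd45b* (1.27) and *Syne1* (1.28) were not. In all, 363 genes with at least 2 CPM had a 4 h ratio of at most 0.5, and besides the 172 late fallers these were 183 genes already under 0.8 at 1 h and 8 genes that were first over 1/0.8.

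**Figure D2:**
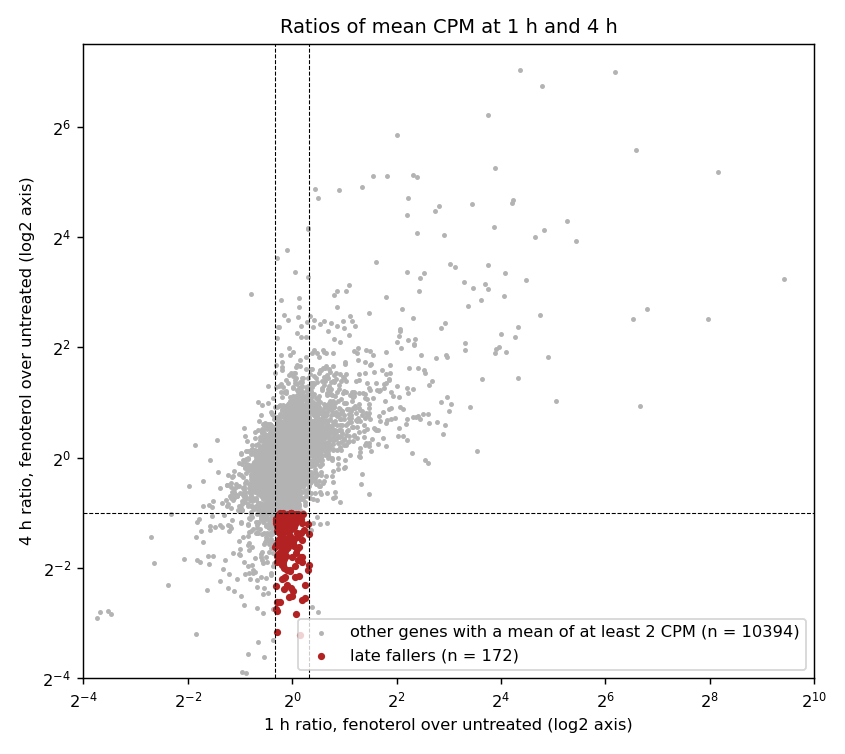
The 1 h ratio is plotted against the 4 h ratio for the 10566 genes with a mean of at least 2 CPM, on log2 axes, with late fallers in red and the limits of the rule as dashed lines. The 172 red points fill the box between 1 h ratios of 0.8 and 1/0.8 and below a 4 h ratio of 0.5, by construction.

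Fitted with edgeR over all genes, the late fallers had a median log2 fold change of -0.04 at 1 h and -1.40 at 4 h, beside 0.00 for the median of all 12386 genes tested at both times. At 4 h 171 of the 172 had an adjusted p under 0.05 and were lower, where 20.4% of all tested genes were, and at 4 h against 1 h 171 were lower, where 19.8% were. The exception in both was *Gm44751*, and with the mouse as a block it passed in both. At 1 h 10 of the 172 (5.81%) passed, beside 20.1% of all genes (10.1% lower and 10.0% higher), and with the mouse as a block 23 (13.4%) did, beside 27.0% of all genes. The 10 were *Mertk*, *Ehd4*, *Arhgap17*, *Blnk* and *Htra2*, which were lower, and *Tbc1d1*, *Tbc1d2b*, *Tmem135*, *Cdk6* and *Frmd6*, which were higher. With single libraries left out the count was 4 to 13, with 4 without the 1 h library of mouse 1 or of mouse 3, 5 without untreated mouse 2 and 6 without untreated mouse 1, so these calls at 1 h depend on single libraries. Since the rule used these contrasts, the counts describe how it sorted the genes.

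A check that the rule could not fix was made by choosing genes in 3 mice and reading them in the fourth. With mouse 1, 2, 3 or 4 left out, the rule chose 181, 168, 172 and 181 genes. In the mouse that had not been used, 180, 168, 171 and 180 of these were lower at 4 h than untreated, and 86.2%, 92.9%, 77.9% and 76.8% were at a ratio of 0.5 or less, where 46.9%, 47.1%, 46.3% and 46.1% of all genes with at least 2 CPM in the other 3 mice were lower and 3.69%, 4.55%, 3.47% and 3.73% at 0.5 or less. The median 4 h ratio in that mouse was 0.393, 0.341, 0.399 and 0.415, close to the medians of 0.395, 0.394, 0.396 and 0.392 in the 3 mice that chose the genes. The 1 h ratio in the unused mouse was inside the window for 74.0%, 79.2%, 82.0% and 80.7%, not far from the 70.2%, 69.7%, 75.6% and 75.6% of all these genes. Both limits were met there by 63.0%, 73.2%, 64.0% and 61.9% of the chosen genes, beside 1.49%, 1.98%, 1.58% and 1.60% of all. The genes that were not lower were *Tnfsf13* in mouse 1 (ratio 1.06), *Ppp1r9a* in mouse 3 (1.09) and *Ifit2* in mouse 4 (1.253), and none of these was a late faller when all mice were used.

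**Figure D3:**
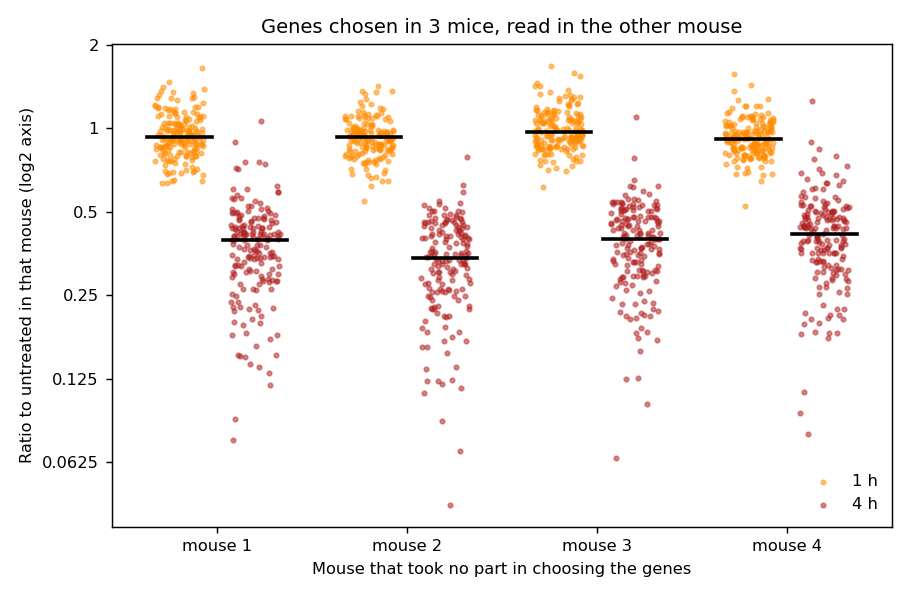
For each mouse, points are the genes chosen in the other 3 mice (181, 168, 172 and 181 genes), at their ratio to untreated in the mouse left out, on a log2 axis, orange at 1 h and red at 4 h, with black bars for medians. The orange medians lie between 0.916 and 0.965 and the red medians between 0.341 and 0.415.

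Promoters were examined because the genes moved together; the CRE is the textbook site of CREB, and AP-1 motifs are sites of Fos and Jun proteins. RefSeq promoters of the GRCm38.p6 assembly, from 250 bases before to 50 bases after a start, matched 128 of the 172 genes with 175 starts. The full CRE, TGACGTCA, was in 2 of the 175 (1.14%), compared with 3.02% of the 12075 promoters matched in this way to tested genes and 2 of the 181 promoters of the genes already lower at 1 h. The part of it that reads TGACG was in 21.1%, compared with 31.1% and 26.5%. All motifs were searched on both strands. The AP-1 motif TGACTCA, which cannot be part of the CRE, was in 12 of the 175 (6.86%), compared with 3.78% of all promoters and 3.31% of those of genes already lower at 1 h. The E-box CACGTG was in 8.0% compared with 10.0% and 11.6% in the same order, the interferon element GAAANNGAA in 5.71% compared with 7.45% and 13.3%, the ETS motif GAGGAAGT in 3.43% compared with 3.49% and 9.39%, and TATAAA in 10.9% compared with 7.09% and 8.29%. The NF-κB motifs GGGACTTTC and GGAATTTCC were in 0 and 3 of the 175, compared with 0.389% of all promoters for each and with 1 and 2 of the 181 of genes already lower. The SP1 motif GGGCGG was in 52.6% compared with 62.0% and 55.2%, and the median observed over expected CpG was 0.647 compared with 0.754 and 0.596, so for the CRE, SP1 and CpG the late fallers were nearer to the genes already lower than to all genes. These are matches of letters and say nothing of binding.

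The sequences of 5 of these promoters are shown: both with the CRE, and 3 of the 12 with the AP-1 motif, as examples whose values are given below for every mouse. Each run is the 250 bases before the start, read 5′ to 3′ on the gene's strand, with the motif in capitals, and motif positions count back from the start. *Mitf* (chr6:97991533-97991782, plus strand) has the CRE at -153 before the most downstream of its 3 listed starts, *Pogk* (chr1:166409829-166410078, minus strand) has it at -65, and the AP-1 motif lies at -140 in *Fcrl1* (chr3:87376137-87376386, plus strand), at -42 in *Slamf7* (chr1:171649000-171649249, minus strand) and at -80 before 1 of 3 starts of *Fgd4* (chr16:16560220-16560469, minus strand). In melanocytes the CRE of *Mitf* is the textbook link between cAMP and pigment genes.
Mitf: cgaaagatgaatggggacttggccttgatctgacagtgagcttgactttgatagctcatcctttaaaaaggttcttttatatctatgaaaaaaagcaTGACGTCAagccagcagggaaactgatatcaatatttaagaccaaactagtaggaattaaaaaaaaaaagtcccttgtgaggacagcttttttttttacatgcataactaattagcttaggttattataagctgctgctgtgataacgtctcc
Pogk: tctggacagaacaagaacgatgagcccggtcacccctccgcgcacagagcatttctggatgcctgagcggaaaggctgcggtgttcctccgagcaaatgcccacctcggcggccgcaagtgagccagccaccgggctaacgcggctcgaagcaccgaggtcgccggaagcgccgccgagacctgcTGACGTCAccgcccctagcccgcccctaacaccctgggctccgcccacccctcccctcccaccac
Fcrl1: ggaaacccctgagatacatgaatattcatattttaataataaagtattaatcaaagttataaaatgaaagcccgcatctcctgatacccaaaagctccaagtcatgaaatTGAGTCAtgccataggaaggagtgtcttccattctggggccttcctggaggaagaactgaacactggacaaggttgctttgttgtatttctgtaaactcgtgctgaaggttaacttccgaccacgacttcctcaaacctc
Slamf7: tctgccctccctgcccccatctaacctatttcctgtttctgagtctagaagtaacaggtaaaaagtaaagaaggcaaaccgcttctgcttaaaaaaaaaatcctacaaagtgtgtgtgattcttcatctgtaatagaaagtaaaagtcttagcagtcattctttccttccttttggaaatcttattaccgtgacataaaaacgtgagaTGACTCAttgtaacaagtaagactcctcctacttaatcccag
Fgd4: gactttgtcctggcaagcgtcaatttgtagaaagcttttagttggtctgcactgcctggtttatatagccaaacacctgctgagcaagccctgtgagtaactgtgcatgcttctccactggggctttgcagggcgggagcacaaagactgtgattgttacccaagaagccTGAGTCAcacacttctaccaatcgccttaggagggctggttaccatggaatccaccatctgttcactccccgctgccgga

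Both genes with a full CRE were near the untreated level at 1 h (ratios 0.924 and 0.915) and low at 4 h. *Mitf*, a basic helix-loop-helix factor of pigment cells, osteoclasts and mast cells, had 110, 106, 100 and 109 CPM in untreated BMDMs of mice 1 to 4, 101, 104, 92.4 and 95.9 at 1 h, and 27.3, 30.4, 30.7 and 34.9 at 4 h. *Pogk* had 37.6 ± 1.85 CPM (mean ± SD, n = 4) untreated, 34.4 ± 3.71 at 1 h and 13.3 ± 0.752 at 4 h, but *Tada1* overlaps it on the opposite strand, so its counts are uncertain. The counts do not tell from which of its starts *Mitf* RNA came. The other 11 genes with an AP-1 match besides *Fcrl1* were *Adam19*, *Arap2*, *Ccr3*, *Fgd4*, *Fmnl3*, *Frmd4b*, *Mndal*, *Pde1c*, *Slamf7*, *Slc25a13* and *Snx29*.

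The late fallers described next had low 4 h ratios, between 0.111 and 0.198. *Samd4*, a vertebrate Smaug protein that binds and represses mRNAs, had 16.6, 19.0, 12.7 and 19.6 CPM in the 4 untreated libraries, 11.3, 17.8, 10.7 and 15.5 at 1 h and 2.43, 2.60, 0.729 and 1.45 at 4 h. Its 4 h ratio was 0.111, with every 4 h value far below every other value. *Cmah*, whose enzyme makes the sialic acid Neu5Gc, had 10.9 ± 0.577 CPM untreated, 11.4 ± 1.08 at 1 h and 1.43 ± 0.472 at 4 h. *Fcrl1*, an Fc receptor-like protein best known from B cells, had 17.4, 14.3, 18.7 and 17.3 CPM untreated, 15, 13.1, 15 and 12.4 at 1 h and 2.54, 2.06, 1.80 and 3.11 at 4 h. Its 1 h values overlapped with the untreated ones, though they were lower within every mouse, and its 4 h values did not overlap.

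Others with low ratios were *Nav2* and *Myh10*, the heavy chain of non-muscle myosin IIB. *Nav2* had 46.9 ± 7.99 CPM untreated, 53.4 ± 7.81 at 1 h and 7.71 ± 1.65 at 4 h, and *Myh10* had 6.47 ± 1.42, 7.65 ± 1.32 and 1.02 ± 0.211. Both had a higher mean at 1 h than in untreated cells, but neither passed at 1 h (edgeR adjusted p = 0.25 for both). *Npas2*, a paralog of Clock, had 4.03 ± 0.704, 3.89 ± 0.835 and 0.614 ± 0.311 CPM. It was the only late faller among 19 tested clock genes (5.26%, beside 1.39% of all tested genes). *Cd40*, the TNF receptor family member through which T cells activate macrophages, had 8.55, 10.4, 8.40 and 8.92 CPM untreated, 9.46, 9.19, 8.27 and 9.08 at 1 h and 1.84, 1.19, 1.46 and 1.53 at 4 h. *Ndrg1* had 149 ± 17.9, 150 ± 13.8 and 27.8 ± 2.54 CPM, and *Fam49a*, which binds the GTPase Rac1, had 91.2 ± 9.99, 90.2 ± 15 and 17.5 ± 2.02. Another 5 (*Etl4*, *Gm14461*, *Coro2b*, *Ptchd1* and *Pkib*) had 4 h ratios of 0.150, 0.163, 0.192, 0.198 and 0.163.

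**Figure D4:**
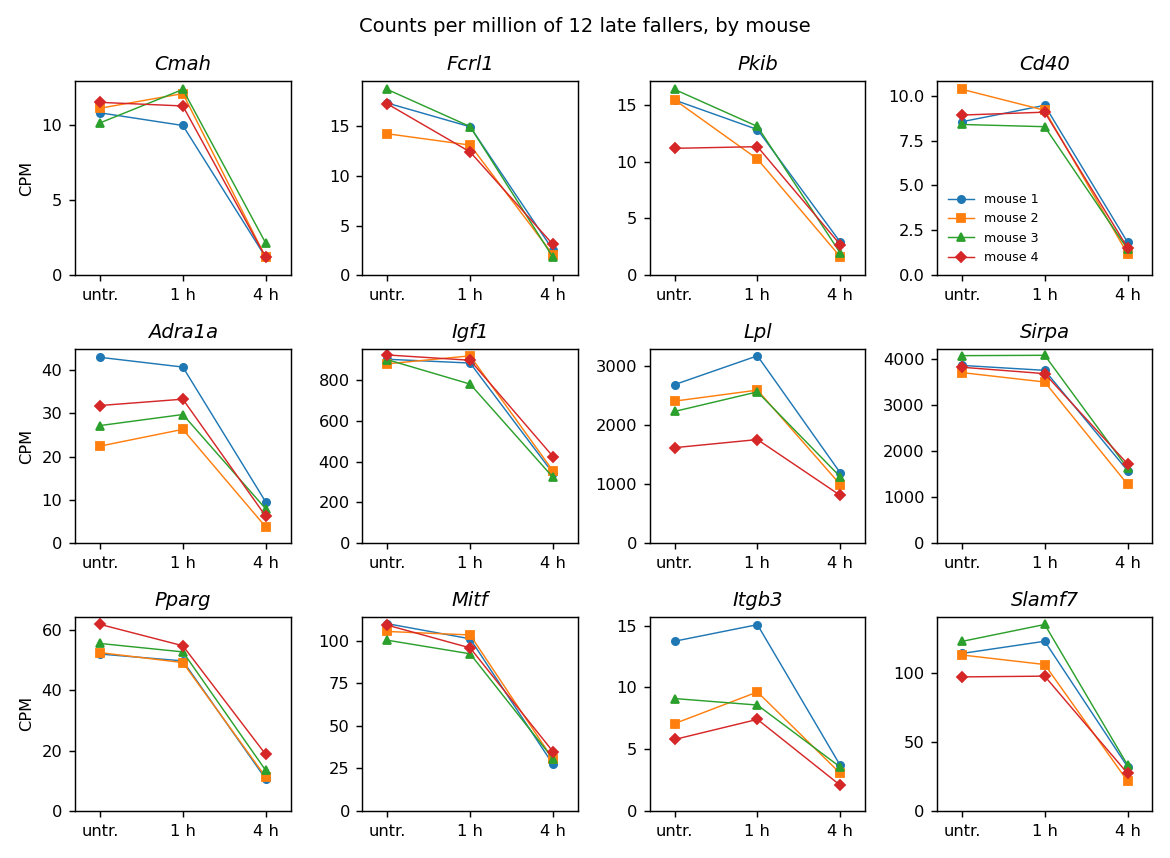
CPM of 12 late fallers without fenoterol and 1 h and 4 h after it was added at 1 μM, with 1 line per mouse and each vertical axis starting at 0. In each panel all 4 lines change more between 1 h and 4 h than between untreated and 1 h and end lower at 4 h, for *Sirpa* at 1277 to 1722 CPM after 3708 to 4076 untreated.

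Receptors for adrenergic and other ligands were among the late fallers. *Adra1a*, the α1A-adrenergic receptor, had 43, 22.4, 27.2 and 31.8 CPM in untreated BMDMs, 40.7, 26.3, 29.7 and 33.3 at 1 h and 9.51, 3.74, 7.92 and 6.21 at 4 h. Within each mouse the 4 h value was between 0.170 and 0.294 of the untreated value, and mouse 1 was highest and mouse 2 lowest in each group. Of the list of other G protein-coupled receptors, 74 tested, 4 were late fallers (5.41%), beside 1.39% of all tested genes. *Calcrl*, the receptor that binds adrenomedullin or CGRP with its Ramp partner, had 40.6 ± 3.04, 37.9 ± 2.17 and 12.9 ± 1.55 CPM. *Gpr157* (14.3 ± 1.03, 14.2 ± 1.35 and 4.02 ± 0.265) and *P2ry12*, an ADP receptor (16.0 ± 1.74, 14.9 ± 1.5 and 5.08 ± 0.512), were close to it in ratio, and *Gpr162* was at 0.478. Of the other 70, 24 (34.3%) were lower and 18 (25.7%) higher at 4 h, beside 20.4% and 19.7% of all tested genes, and the median log2 fold change of the list was -0.17, beside 0.00 over all tested genes. *Ccr3*, the eotaxin receptor, was the only late faller among 17 chemoattractant receptors (5.88%), with 7.05 ± 2.9 CPM untreated, 6.21 ± 2.3 at 1 h and 2.69 ± 0.60 at 4 h.

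Genes of the cAMP pathway were on both sides. The list of adenylyl cyclases, phosphodiesterases, protein kinase A subunits and partners had 50 tested genes, of which 3 (6%) were late fallers, beside 1.39% of all tested genes. *Pkib*, an inhibitor of the protein kinase A catalytic subunit, had 15.4, 15.4, 16.3 and 11.2 CPM untreated, 12.8, 10.2, 13.1 and 11.3 at 1 h and 2.92, 1.63, 1.94 and 2.69 at 4 h. *Pde1c*, a calmodulin-dependent phosphodiesterase of cAMP and cGMP, had 3.51 ± 0.814, 3.12 ± 0.803 and 0.696 ± 0.260 CPM. *Adcy9*, an adenylyl cyclase, had 47.1 ± 5.36, 44.6 ± 3.09 and 18.5 ± 1.79. Of the other 47 genes 9 (19.1%) were lower and 19 (40.4%) higher at 4 h, beside 20.4% and 19.7% of all tested genes, and the median log2 fold change of the list was 0.05.

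Phagocytic, scavenger, lectin and Fc receptors counted 7 late fallers among 84 tested (8.33%), beside 1.39% of all tested genes. *Mertk*, the receptor kinase that recognises apoptotic cells, had 196, 209, 188 and 202 CPM untreated, 156, 176, 164 and 165 at 1 h and 67.7, 69.7, 71.1 and 74.7 at 4 h. Its 3 groups were fully apart, and it was also the only late faller among the 10 macrophage markers. *Gas6*, the bridging ligand that ties Mertk to phosphatidylserine, had 1449 ± 64.2, 1281 ± 45.2 and 664 ± 80.0 CPM, while *Axl*, a related receptor of Gas6, was no late faller, with 36.3 ± 4.55, 37.6 ± 3.73 and 34.1 ± 4.64 (log2 fold change -0.11 ± 0.10 at 4 h, edgeR adjusted p = 0.43). *Lair1*, an inhibitory collagen receptor, had 89.8, 75.9, 118 and 78.4 CPM untreated, 123, 94.6, 136 and 94.5 at 1 h and 23.6, 12.9, 24.4 and 26.4 at 4 h. It was above untreated at 1 h in each mouse, without passing there (edgeR adjusted p = 0.20), and at 0.242 of untreated at 4 h. *Clec12a*, an inhibitory lectin, had 807 ± 89.2, 774 ± 42.1 and 349 ± 73.8, and *Stab2*, a scavenger receptor for hyaluronan, had 7.08 ± 2.29, 5.69 ± 0.965 and 2.28 ± 0.957. *Clec4b1* shared 8.68% of its 50-base stretches with *Clec4a2*, so its ratio of 0.477 is uncertain. Of the other 77 genes of the list 28 (36.4%) were lower and 15 (19.5%) higher at 4 h, beside 20.4% and 19.7% of all tested genes, and the list's median log2 fold change was -0.16.

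*Sirpa*, the receptor for the "don't eat me" signal CD47, took more reads than any other late faller. It had 3864, 3708, 4076 and 3824 CPM in untreated BMDMs, 3757, 3503, 4084 and 3685 at 1 h and 1576, 1277, 1627 and 1722 at 4 h, so the 1 h values overlapped with the untreated ones and the 4 h values were 0.344 to 0.450 of untreated in single mice. Of 70 adhesion and guidance genes tested, *Sirpa* and 3 more were late fallers (5.71%, beside 1.39% of all tested genes). *Itga6* (239 ± 48.0, 245 ± 51.0 and 78.4 ± 22.3 CPM) and *Itgb3* (8.92 ± 3.49, 10.2 ± 3.39 and 3.08 ± 0.729) encode integrin chains and varied widely between mice, with mouse 1 highest or next to highest in each group. *Nrp1*, a semaphorin and VEGF co-receptor, had 467 ± 29.1, 485 ± 52.2 and 208 ± 8.72. Its paralog *Nrp2* was at 0.666 at 4 h and so missed the limit. Of the other 66 genes 21 (31.8%) were lower and 14 (21.2%) higher at 4 h, beside 20.4% and 19.7% of all tested genes, and the list's median log2 fold change was -0.25.

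The list of regulators of small GTPases, among the longest, held 14 late fallers of 191 tested (7.33%), beside 1.39% of all tested genes and 9.09% and 8.33% on the cholesterol and phagocytic receptor lists. They included exchange factors for Cdc42, Rac or Rap (*Fgd4*, *Dock8*, *Dock10* and *Rapgef5*), activating proteins for Ras, Rac and Arf (*Rasa4*, *Arhgap17*, *Srgap2* and *Asap1*), and Rab regulators of the Tbc1d and Dennd families (*Tbc1d1*, *Tbc1d2b*, *Tbc1d8*, *Tbc1d16*, *Dennd2a* and *Dennd2c*). *Fgd4* had 189, 184, 189 and 171 CPM untreated, 161, 166, 182 and 145 at 1 h and 42.8, 42, 49.1 and 49.4 at 4 h. *Rapgef5* had 115, 84.6, 123 and 96.8, then 126, 103, 141 and 110, then 22.9, 22.1, 28.7 and 39.2. *Fgd4* and *Rapgef5* were the lowest of the 14 with 4 h ratios of 0.25 and 0.270. *Rapgef5* was above its untreated value at 1 h in every mouse but did not pass there (edgeR adjusted p = 0.29). *Rasa4* had 301 ± 12.2, 247 ± 19.6 and 87.7 ± 11.9 CPM, *Arhgap17* 283 ± 16.3, 236 ± 13.5 and 84.4 ± 3.28, and *Dock10* 157 ± 15, 168 ± 15.7 and 57.3 ± 9.20. *Tbc1d1* and *Tbc1d2b*, at 0.495 and 0.491, were the nearest to the 4 h limit. Of the other 177 genes 63 (35.6%) were lower and 38 (21.5%) higher at 4 h, beside 20.4% and 19.7% of all tested genes, and the median log2 fold change over the whole list was -0.15, beside 0.00 over all tested genes.

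Actin and membrane proteins outside the lists, chosen except for *Ehd4* after their values were seen, included *Tns3*, a tensin of focal adhesions, with 608, 571, 523 and 548 CPM untreated, 519, 514, 544 and 511 at 1 h and 127, 92.6, 121 and 112 at 4 h. *Myo10*, the myosin of filopodia, had 42.6 ± 9.03, 41.5 ± 4.39 and 10.2 ± 1.04, and *Myo1e* 143 ± 12.8, 153 ± 12.5 and 55.4 ± 6.92. *Ehd4*, a protein of endocytic recycling, had 822, 970, 851 and 887 CPM untreated, 685, 776, 727 and 707 at 1 h and 230, 218, 248 and 250 at 4 h. It was among the 10 late fallers with the most reads and was already a little lower at 1 h (ratio 0.820), with no overlap between groups.

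Lipid genes included a pair with very high read numbers. *Lpl*, lipoprotein lipase, which frees fatty acids from circulating triglycerides, had 2687, 2408, 2233 and 1618 CPM in untreated BMDMs, 3176, 2595, 2565 and 1756 at 1 h and 1191, 993, 1124 and 809 at 4 h. In each mouse *Lpl* was higher at 1 h than untreated, without passing there (edgeR adjusted p = 0.42), and at 4 h it was at 0.412 to 0.503 of untreated. *Lipa*, lysosomal acid lipase, which frees cholesterol and fatty acids from lipoproteins taken up, had 2479, 2340, 2620 and 2368, then 2588, 2374, 2417 and 2226, then 1174, 1164, 1277 and 1286. *Lipa* sat at the very limit of the rule with a ratio of 0.50. *Mgll*, monoacylglycerol lipase, had 4.71 ± 1.13, 5.34 ± 1.57 and 2.02 ± 0.476 CPM. *Lpl* and *Mgll* were the late fallers among 67 tested genes of triglyceride storage and fatty acid oxidation (2.99%, beside 1.39% of all tested genes). Of the other 65, 11 (16.9%) were lower and 20 (30.8%) higher at 4 h, beside 20.4% and 19.7% of all tested genes (median log2 fold change of the list -0.01).

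The cholesterol list held 5 late fallers among 55 tested (9.09%, beside 1.39% of all tested genes): *Lipa*, *Osbpl8* and the transporter genes *Abca6*, *Abca9* and *Abcg3*. *Osbpl8*, which exchanges lipids at contacts of the endoplasmic reticulum, had 595 ± 37.2, 626 ± 44.0 and 284 ± 18.9 CPM. *Abca9* had 186 ± 23.5, 166 ± 22.7 and 86.3 ± 21.7, and *Abca6*, its neighbor on chromosome 11, 9.32 ± 2.13, 8.55 ± 1.85 and 3.69 ± 0.382. None of these is the main cholesterol exporter *Abca1*, which had 858 ± 99.9, 827 ± 115 and 1092 ± 137 CPM (log2 fold change 0.32 ± 0.11 at 4 h, edgeR adjusted p = 0.033). Of the other 50 genes 11 (22%) were lower and 21 (42%) higher at 4 h, beside 20.4% and 19.7% of all tested genes, with a median log2 fold change of 0.12 over the list. *Pparg*, the nuclear receptor of fatty acids and inducer of many lipid genes, had 52.0, 52.5, 55.5 and 61.8 CPM untreated, 49.7, 49.2, 52.7 and 54.7 at 1 h and 10.6, 11.2, 13.4 and 18.7 at 4 h. The 1 h values of *Pparg* overlapped with the untreated ones, though they were lower within every mouse. Its 4 h values were far below both, and its 4 h ratio was 0.245. *Hpgds* and *Daglb*, chosen after their values were seen, make prostaglandin D2 and the endocannabinoid 2-arachidonoylglycerol. *Hpgds* had 288 ± 23, 268 ± 28.2 and 94.3 ± 14, and *Daglb* 196 ± 13.6, 166 ± 5.03 and 93.8 ± 6.24. *Daglb* overlaps *Rac1* on the opposite strand, so the counts of *Daglb* are uncertain.

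Of 149 tested genes on the list of other transcription factors *Mitf* and *Pparg* were the late fallers (1.34%), and 52 of the other 147 (35.4%) were lower and 36 (24.5%) higher at 4 h, beside 20.4% and 19.7% of all tested genes (median log2 fold change of the list -0.05). Among 386 zinc finger genes there were 2, *Zbtb16* (6.52 ± 1.8, 6.44 ± 0.71 and 2.74 ± 0.68 CPM) and *Zfp704* (84.1 ± 8.7, 72.4 ± 4.8 and 37.2 ± 2.6), or 0.518% of that list beside 1.39% of all tested genes. The corepressor *Tle1* (outside the lists) had 15.6 ± 1.49, 13.7 ± 2.62 and 3.97 ± 0.313, while its paralogs *Tle3* and *Tle4* had 4 h ratios of 0.843 and 1.13. Chromatin regulators added *Dnmt3a*, a de novo DNA methyltransferase (160 ± 12, 150 ± 13 and 72.7 ± 5.8), and *Hdac9* (9.99 ± 0.36, 11.2 ± 1.8 and 3.81 ± 0.34), 2 of 157 (1.27%).

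Genes of secreted factors and their receptors follow. *Igf1*, insulin-like growth factor 1, had 902, 880, 900 and 923 CPM untreated, 884, 919, 780 and 897 at 1 h and 343, 354, 323 and 425 at 4 h. Its untreated values lay close together, mouse 3 was lowest at 1 h, and at 4 h the mice were at 0.358 to 0.460 of untreated. *Pdgfc* (13.4 ± 2.87, 13.1 ± 3.03 and 3.15 ± 0.885) and *Kitl*, stem cell factor (11.2 ± 1.29, 9.77 ± 2.71 and 3.90 ± 1.31), followed the same course at low counts. None of these is on a list; *Igf1* was among the 10 with the most untreated reads, and *Pdgfc* and *Kitl* were chosen after their values were seen. *Il10*, the anti-inflammatory cytokine, was the late faller among 25 cytokines (4%, beside 1.39% of all tested genes), with 3.82 ± 0.70, 3.49 ± 0.54 and 1.77 ± 0.53 CPM. Of the other 24 cytokines 5 (20.8%) were lower and 11 (45.8%) higher at 4 h, beside 20.4% and 19.7% of all tested genes (median log2 fold change of the list 0.34). *Il13ra1* was the 1 late faller among 54 cytokine receptors (1.85%). Among 60 Toll-like receptor and NF-κB genes the late fallers (3.33%) included *Cd180*, the Toll-like receptor relative RP105 (252 ± 35.9, 214 ± 30.5 and 70.5 ± 9.46). None was found among 20 chemokines, 78 interferon-stimulated genes, 34 IRF, STAT and SOCS genes and 18 growth arrest genes of the Btg, Tob and Gadd45 type, beside 1.39% of all tested genes.

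Transport and organelle genes came next. Of 183 solute carriers tested 6 were late fallers (3.28%, beside 1.39% of all tested genes), and 40 of the other 177 (22.6%) were lower and 44 (24.9%) higher at 4 h, beside 20.4% and 19.7% of all tested genes (median log2 fold change of the list 0.01). *Slc11a2*, the divalent metal transporter of iron (112 ± 9.34, 95.1 ± 8.94 and 54.9 ± 4.05), fell in the same window as *Tfrc*, the transferrin receptor (160 ± 16.6, 131 ± 30.0 and 67.1 ± 10.5), which was chosen after its values were seen. *Slc16a10*, a transporter of aromatic amino acids, had 102 ± 5.0, 112 ± 8.34 and 33.2 ± 6.78, *Slc9a7* was at a 4 h ratio of 0.324, *Slc25a13* at 0.475 and *Slc24a5*, which *Myef2* overlaps on the opposite strand, at 0.342. *Slc2a3*, a glucose transporter, had 12.9 ± 0.729, 13.5 ± 1.41 and 6.11 ± 1.01, and with *Ndrg1* it was 1 of 2 late fallers among 46 glycolysis and hypoxia genes (4.35%). Of the other 44, 5 (11.4%) were lower and 18 (40.9%) higher at 4 h (median log2 fold change of the list 0.21). Of 60 ion channels (median log2 fold change -0.21) 20 of the 57 others (35.1%) were lower and 14 (24.6%) higher at 4 h, and 3 (5%) were late fallers: *Hvcn1*, the proton channel that sustains the oxidative burst (120 ± 14.5, 104 ± 13 and 30.7 ± 7.16), *Mcoln2* (99.2 ± 8.07, 80.1 ± 7.19 and 45.9 ± 8.33) and *Cacna1d* (30.0 ± 2.28, 29.2 ± 0.949 and 13.9 ± 1.81). *Hvcn1* overlaps *Tctn1* on the opposite strand, whose reads came to 32.0% of its own. *Atp6v0a1*, a subunit of the proton pump of lysosomes and the 1 late faller among 69 autophagy and lysosome genes (1.45%), had 708, 634, 601 and 657 CPM untreated, 676, 633, 641 and 665 at 1 h and 240, 192, 224 and 241 at 4 h. That list leaves out other lysosomal late fallers, such as *Lipa* and *Rragd*. *Wwp1*, 1 of 237 ubiquitin ligases (0.422%), had 850, 909, 885 and 919, then 767, 875, 759 and 780, then 224, 273, 238 and 262. *Atp6v0a1* and *Wwp1* had 1 h values that overlapped with the untreated ones and 4 h values far below, and *Wwp1* was lower at 1 h than untreated in every mouse.

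The other lists held 1 late faller each except for kinases. *Cdk6*, which drives entry into S phase with D cyclins, was the 1 among 137 cell cycle genes and had 81.6, 83.6, 99.8 and 91.5 CPM untreated, 119, 95.1, 122 and 108 at 1 h and 24.7, 17, 23.3 and 26.5 at 4 h. It was higher at 1 h in all 4 mice before the drop. *Cd40* was the 1 among 38 genes of antigen presentation and costimulation, *Bcl2l1*, encoding Bcl-xL, the 1 among 29 apoptosis genes (83.6 ± 13, 73.8 ± 11 and 41.6 ± 9.8), and *Samd4* the 1 among 111 genes of RNA decay and binding. *Map3k9*, *Pip4k2a*, *Prkch* and *Spred1* were 4 of 176 kinases and lipid kinases with their regulators (2.27%), with 4 h ratios of 0.306, 0.462, 0.319 and 0.441. Shares of these lists were 0.730% for cell cycle, 2.63% for antigen presentation, 3.45% for apoptosis and 0.901% for RNA decay and binding, beside 1.39% of all tested genes. In all, 25 of 29 lists held a late faller, 71 of the 172 were on a list and 101 were on none.

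Within 200 kb of each other on a chromosome lay 11 pairs of late fallers. Another late faller was that near for 19 of the 172 (11.05%), and a late faller was that near for 5.65% of the 12203 other tested genes. The SLAM family cluster on chromosome 1 held 3, *Ly9* (chr1:171588624-171607410), *Slamf7* (chr1:171632403-171653035) and *Cd48* (chr1:171682009-171705258), receptors and a ligand of immune cell contact. *Slamf7* had 114, 113, 123 and 97.0 CPM untreated, 123, 106, 135 and 97.5 at 1 h and 31.9, 21.5, 33.2 and 27.1 at 4 h. *Cd48* had 274, 268, 277 and 279, then 240, 245, 232 and 233, then 92.1, 73.0, 88.0 and 86.7, and *Ly9* 438 ± 22.7, 392 ± 8.37 and 189 ± 13.6. Other members of the family were no late fallers: *Cd84* had a 4 h ratio of 0.615 (log2 fold change -0.72 ± 0.07, edgeR adjusted p = 1.4e-06), *Slamf8* had 0.432 but 0.740 at 1 h, and *Slamf9* had 0.888. On chromosome 11 *Abca9* (chr11:110100749-110168196) and *Abca6* (chr11:110176820-110251776) lay 8.62 kb apart, and of the same cluster *Abca5* (1 h ratio 0.797, 4 h ratio 0.452) and *Abca8b* (4 h ratio 0.599) were close to the rule but outside it. The other pairs were *Npas2* with *Tbc1d8*, *Dnmt3a* with *Efr3b*, *Dip2b* with *Slc11a2*, *Calcrl* with the long noncoding RNA *Gm13710*, *Bcar3* with *Fnbp1l*, *M1ap* with *Htra2*, and *Frmd4b* with *Mitf*.

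Gene span was a feature that the rule did not use. From first to last annotated base (GENCODE M21, GRCm38) the 172 genes had a median span of 83.6 kb (quartiles 38.8 and 152), compared with 25.6 kb for the 183 genes that were already under 0.8 at 1 h and 21.9 kb for the 12375 tested genes with a gene model. The 8 genes that were first over 1/0.8 at 1 h also had long spans, with a median of 145 kb and 5 of 8 at 100 kb or more. A span of at least 100 kb was found in 77 of the 172 (44.8%), compared with 12.6% and 11.5%, and a span under 10 kb in 5.81%, compared with 26.2% and 27.4%. Read the other way, 0.295% of tested genes under 10 kb were late fallers, 0.644% from 10 to 30 kb, 1.67% from 30 to 100 kb, 5.58% from 100 to 300 kb and 4.37% from 300 kb up. The share of genes already lower at 1 h stayed between 1.16% and 1.84% over the same spans. The pattern was present at each expression level: the median span of late fallers with a mean of 2 to 10, 10 to 50, 50 to 200 and at least 200 CPM was 64.7, 94.8, 93.4 and 78.8 kb, compared with 18.2, 21.9, 30.3 and 27.2 kb of all tested genes. These shares are descriptions, since genes are not replicates of a condition.

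Among all 363 genes with a 4 h ratio of at most 0.5, the median 1 h ratio was higher in classes of longer span up to 300 kb. For spans under 10 kb (59 genes) the median 1 h ratio was 0.625, and it was 0.722 from 10 to 30 kb (74 genes), 0.797 from 30 to 100 kb (125 genes), 0.943 from 100 to 300 kb (92 genes) and 0.894 from 300 kb up (13 genes). Over all genes with at least 2 CPM in these classes the median 1 h ratio was 0.954, 0.947, 0.949, 0.970 and 0.968, and 2.35%, 2.04%, 3.93%, 8.61% and 7.43% had a 4 h ratio of at most 0.5. The median 4 h ratios of the 363 genes, which the choice of these genes kept at 0.5 or less, were 0.405, 0.405, 0.377, 0.363 and 0.352. Late fallers were 16.9%, 35.1%, 47.2%, 73.9% and 69.2% of the genes in these classes. The longest late fallers were *Etl4* (900.9 kb, chr2:19909780-20810713), *Hdac9* (869.5 kb), *Nav2* (701.4 kb, chr7:48908716-49610090) and *Pde1c* (499.3 kb, chr6:56069804-56569103). Short ones existed as well, such as *Htra2* (4.01 kb), *Mex3b* (4.18 kb), *Il10* (5.13 kb), *Gpr162* (5.54 kb) and *Cd40* (17.3 kb).

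**Figure D5:**
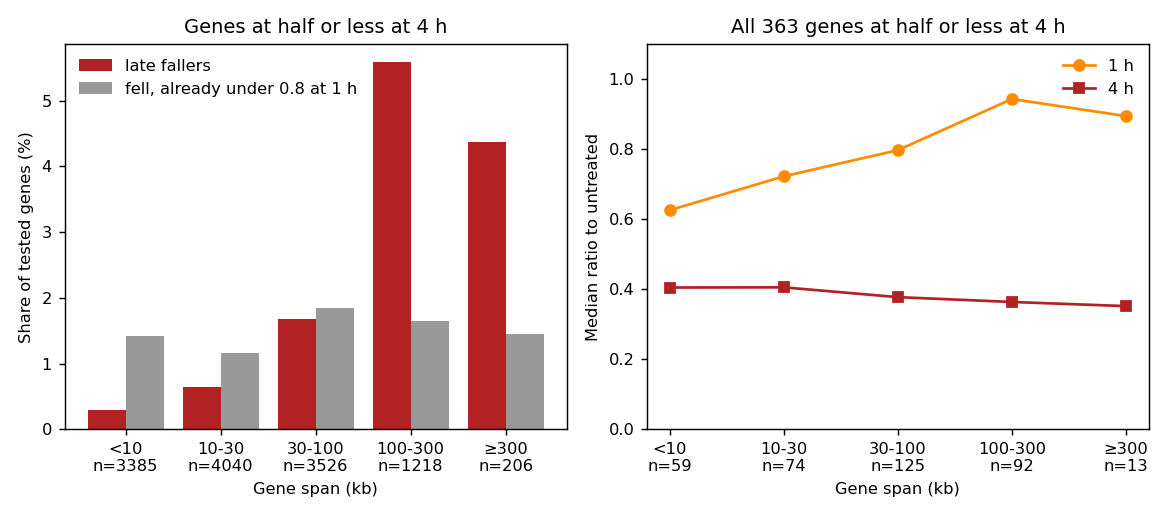
Left, the share of tested genes in each class of gene span that were late fallers (red) or had a 4 h ratio of at most 0.5 and a 1 h ratio under 0.8 (grey), with the number of tested genes under each class. Right, the median 1 h and 4 h ratios of the 363 genes with a 4 h ratio of at most 0.5 in the same classes: the 1 h median lies at 0.625 under 10 kb and 0.943 from 100 to 300 kb, and the 4 h median, kept at 0.5 or less by the choice of genes, between 0.352 and 0.405.

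Other features of the 172 genes were nearer to those of all tested genes. For each gene a coding transcript was picked by its rank in the annotation before its length. In it late fallers had a median of 13 exons, compared with 9 in all tested genes, a coding length of 1.85 kb compared with 1.38 kb, and a 3′ UTR of 1.45 kb compared with 1.03 kb. The AU-rich pentamer ATTTA, which marks many unstable mRNAs, was present at least once in the 3′ UTR of 74.7% of late fallers, compared with 78.9% of the genes already lower at 1 h and 67.6% of all tested genes, and its median density was 1.37, 1.5 and 1.27 per kb. Of the 172, 166 were protein coding. Exons of 9 late fallers, *Pogk*, *Hvcn1*, *Slc24a5*, *Daglb* and *Htra2* among them, were overlapped over at least 10% of their length by genes of the opposite strand with more than 10% as many reads, and in 9 others, including *Frmd6*, *Mndal*, *Ptprj*, *Wwp1*, *Fyb*, *Itga6* and *Arap2*, at least 5% of the 50-base stretches also occurred in another gene, so counts of these genes are less certain. Late fallers were found on every chromosome but Y and the mitochondrial one. There were 17 on chromosome 2 (1.75% of its tested genes), 15 on chromosome 6 (2.46%), 14 on chromosome 1 (1.92%) and 3 on chromosome 17 (0.467%), beside 1.39% of all tested genes.

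The spread between mice was wider for late fallers than for all genes with at least 2 CPM. The median coefficient of variation over 4 mice was 10.4% without fenoterol, 10.8% at 1 h and 14.9% at 4 h, compared with 7.86%, 8.27% and 8.15% over the 10566 genes. Untreated levels of the late fallers ran from 2.65 to 3868 CPM, with 61 of the 172 at 100 CPM or more and 41 under 10 CPM. Of markers of other cells, the 10 neutrophil genes summed to 151 to 187 CPM untreated, 138 to 177 at 1 h and 98.4 to 118 at 4 h. *Csf3r* made up most of that sum (117 ± 16.3, 106 ± 13.4 and 65.6 ± 5.09 CPM), while *S100a9* stayed at 17.3, 16.6 and 16.9 and *Ngp* at 12.3, 12.0 and 11.8. Lymphocyte markers summed to 30.8 to 46.3 CPM in all libraries, mostly *Cd4*, and dendritic cell, mast cell and basophil markers to at most 3.59 CPM. Markers of stromal and erythroid cells summed to 22.4 to 72.4 CPM, with *Col1a2* and *Col1a1* the most abundant, and the hemoglobin genes were at 0. In that list *Pecam1*, best known from endothelial cells and also made by leukocytes, had group means of 1.26 CPM untreated, 1.08 at 1 h and 9.84 at 4 h. The part of these markers in the ratios of the late fallers was not tested.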

How the data were processed

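The deposited table holds unnormalized whole-number counts for each gene in each library. Per the labels and methods, the authors mapped 50-base single-end reads of stranded mRNA libraries to GRCm38 with TopHat2 2.0.11 and counted them with HTSeq 0.8.0; the strand option and annotation release were not given in the sources used here. Symbols and gene models came from GENCODE M21 (53274 of 53379 genes matched).

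CPM used column totals. Tests used edgeR 4.0.16 (R 4.3.3): filterByExpr kept 12386 genes, with TMM scaling (factors 0.953 to 1.04), 1 mean per group over 12 libraries, the quasi-likelihood test and Benjamini-Hochberg adjustment (threshold 0.05). The scripts were tested on simulated data. Differences between the 4 mice exceeded counting error (chi-square per degree of freedom 9.71 to 20.0). The numbers in the labels name mice, and deviations from the group mean correlated at 0.290 to 0.561 between same-mouse libraries (12 pairs). Taking deviations from group means pushes the values of different mice down (-0.304 to 0.0912), so these are no separate baseline. A fit with the mouse as block was an alternative.

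Members and gene lists were chosen with earlier results of these data known. Named genes were the 15 lowest 4 h ratios, the 10 highest untreated CPM, list members, genes at the limits and markers; all others were chosen after their values were seen, and some genes that these rules name are not reported here. A list pattern for serotonin receptors that also caught the protease *Htra2* was corrected after its members were seen. No per-sample column was left unused (0). Opposite-strand exons covered at least 10% of 14 members, and 9 members shared 5% or more of their 50-base stretches with other genes.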

Additional observations from a re-analysis of the deposited data

Results flagged for a closer look

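Among 129 late fallers in 3 groups, 387 sets of 4 libraries were examined for a library that stood apart (gap to the nearest library over the whole range above Dixon's 95% critical value), and 14 did, where chance gives about 1 in 20 (19.35). *Bcl2l1* had 26.9 CPM in mouse 2 at 4 h (others 45.2 to 48.0) and *Ccr3* 3.58 (others 2.27 to 2.48). *Map3k9* had 18.3 CPM in untreated mouse 4 (others 14.8 to 15.1), *Spred1* 54.0 in mouse 4 at 4 h (others 39.9 to 40.9) and *Zfp704* 33.3 in mouse 1 at 4 h (others 37.9 to 38.8). *Calcrl* had 41.2 CPM in mouse 1 at 1 h (others 36.5 to 37.2) and 15.2 in mouse 4 at 4 h (others 12.0 to 12.1). *Cmah* had 2.14 CPM in mouse 3 at 4 h (others 1.19 to 1.20). *Gm44751*, a noncoding RNA, had 2.79 CPM in mouse 4 at 1 h (others 9.56 to 10.5). *Hpgds* had 73.6 CPM in mouse 2 at 4 h (others 98.5 to 103) and *Myof* 153 (others 200.1 to 203), while *Tbc1d8* was high there with 36.2 (others 24.6 to 25.4). *Oit3* had 3.39 CPM in mouse 2 at 1 h (others 6.23 to 6.76). *Osbpl8* had 312 CPM in mouse 4 at 4 h (others 271 to 278). Between the time points, 171 of the 172 late fallers differed (4 h against 1 h, edgeR adjusted p under 0.05), which the rule that chose them set.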

How the results depend on the processing

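Which genes counted as late fallers depended on the limits more than on the libraries. In place of 172 there were 90 with a 4 h limit of 0.4, 314 with 0.6 and 88 with a 1 h window of 0.9 to 1/0.9, 203 with TMM scaling (168 shared) and 206 with RLE scaling (167 shared). Leaving out a mouse gave 168 to 181, with 155 to 161 shared. Under TMM scaling the median 1 h ratio of the 172 was 0.974 in place of 0.929. Median span over these rule settings was 64.0 to 108 kb.

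At 1 h the number of late fallers called was 18 with library size only, 23 with the mouse as replicate block and 4 to 13 without single libraries, 4 without the 1 h library of mouse 1 or of mouse 3, 5 without untreated mouse 2 and 6 without untreated mouse 1, beside 10. Library size only gave 1969 genes called lower at 1 h in place of 1251, and a median log2 fold change of the late fallers of -0.11 at 1 h and -1.29 at 4 h against 1 h, as it moved the median of all genes by -0.07 and 0.09. Without single libraries these medians were -0.046 to -0.020 and -1.43 to -1.36, that at 4 h against untreated -1.45 to -1.37, and 171 to 172 late fallers were called at 4 h against untreated. The remaining counts stayed within 1.5 times, DESeq2 and limma-voom included. Genes under 10 CPM rest on few reads at 4 h. The block added *Gm44751* in both comparisons of 4 h and took no late faller away there. Of 6966 fold changes of named late fallers under the alternatives, 164 moved by more than the spread between mice and 0 changed sign where called.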

Other observations

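Noncoding late fallers were 6 by annotation. *Gm14461* (chr2:78237547-78302230) had 6.38, 4.25, 4.77 and 4.21 CPM untreated, 5.06, 4.43, 4.38 and 2.84 at 1 h and 0.865, 0.434, 0.826 and 0.745 at 4 h. *Gm13710*, *Gm5086*, *Gm30329* and *Trerf1* had 4 h ratios of 0.341, 0.334, 0.446 and 0.445. *Trerf1*, a transcriptional regulator that the annotation lists as a processed transcript, had 68.4 ± 2.0, 60 ± 1.7 and 30.4 ± 2.0 CPM (SD, n = 4). *Gm44751* was low in mouse 4 in every group, with 2.58, 2.79 and 2.03 CPM.

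Paralogs *Eya1* and *Eya4*, transcriptional cofactors with phosphatase activity, were both late fallers, with 21.3 ± 4.4, 17.9 ± 3.9 and 7.08 ± 1.8 CPM and 3.32 ± 1.0, 4.10 ± 1.2 and 1.39 ± 0.48. *Lama3*, a laminin chain, had 21.5 ± 4.6, 19.6 ± 1.1 and 4.74 ± 1.0, and *Adam19*, a membrane protease, 59.0 ± 14, 51.9 ± 7.4 and 15.8 ± 3.0. *Igf2bp2*, an mRNA-binding protein, had 31.0 ± 1.0, 33.7 ± 2.3 and 8.50 ± 1.8, and *Nanos1*, another RNA-binding protein, 8.54 ± 1.4, 9.62 ± 0.90 and 2.36 ± 0.63. *Ptpra* and *Ptprj*, receptor phosphatases, were at 4 h ratios of 0.374 and 0.433, *Hpse*, heparanase, at 0.424, *Fyb*, an adaptor of integrin activation, at 0.431, and *Rragd*, a Rag GTPase of lysosomes, at 0.491. These genes were chosen after their values were seen.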
